A study of Mus musculus with 7 samples.

Results

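The genes described here are 10 angiogenic factors and receptors of skeletal muscle: the VEGF ligands Vegfa, Vegfb, Vegfc and Pgf, the VEGF receptors Flt1 and Kdr, the angiopoietins Angpt1 and Angpt2, their receptor Tek, and the peptide ligand Apln. They were chosen by name, and every array probe that carried one of these names, or whose RefSeq accession now does, was taken. This gave 13 probes, 2 each for Vegfa, Flt1 and Kdr and 1 for each of the other 7 genes, among 31131 genes on the array. All 13 were measured well enough to be tested, 11 of them with a signal well over background on each of the 7 arrays. RNA came from the quadriceps of C57BL/6 mice labelled as 3 months old, 1 mouse per array and nothing pooled. The 4 control arrays are labelled WT, and the 3 others AR113Q, which are knock-in mice that carry an expanded stretch of CAG repeats, a model of spinobulbar muscular atrophy (SBMA) taken before motor dysfunction begins. The design text of the series adds the letters NCD to the name of the mutants, AR113Q-NCD, and does not explain them. The labels and legends call the controls WT, whereas the results text of the study describes a knock-in control line with a short repeat, and these descriptions could not be reconciled from the sources used here. The question for these genes was whether the genotypes differed in the signals that maintain the capillary bed.

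VEGF-A is secreted by muscle fibres and other cells and acts on endothelial cells through KDR (VEGFR2), the main signalling receptor for their growth and survival. FLT1 (VEGFR1) binds VEGF-A, VEGF-B and placental growth factor (PGF) tightly and signals weakly, so it also acts as a decoy, while VEGF-C is best known for lymphatic growth. ANGPT1, made by mural cells, activates TEK (TIE2) and stabilises vessels, ANGPT2 is stored in endothelial cells and mostly opposes it, and apelin, the product of Apln, acts on the receptor APLNR in growing vessels. In muscle, VEGF-A is known to rise with hypoxia, through HIF transcription factors, and with endurance activity, through PGC-1alpha and the estrogen-related receptor ERRalpha.

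On each array, 47.6% to 55.8% of the 39429 probes were well above background, and 0 spots were saturated. Signals are given on the log2 scale after background subtraction and quantile normalization, so a difference of 1 is a 2-fold change, and the number of arrays limits the precision. A probe was called changed when its limma adjusted p was at most 0.05 and its log2 fold change, always AR113Q minus WT, was at least 1 in size. By this rule 24.8% of the 20990 probes tested were called in either direction. Ddx3y and Eif2s3y of the Y chromosome lay between 9.89 and 11.42 on all arrays, and neither of the 2 Xist probes was above background on any. The arrays lay on 5 slides, and WT replicate 2 and AR113Q replicate 1 shared the only slide that held both genotypes. Genotype and slide can therefore be separated by 1 pair of arrays alone, and the difference within that pair is given beside the results for the members.

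Of the 13 probes, 3 were called, all lower in AR113Q muscle, against 12.6% of all probes called lower. They measured Vegfa, with both of its probes, and Apln, which was well above background in WT alone and so entered the test through those arrays only. Of the rest, 1 probe each of Flt1 and Kdr had an adjusted p of at most 0.05 with a smaller difference, which makes 5 of 13, where 43.8% of all probes reached that p at any fold. The genotypes did not overlap for 8 of the 13 probes, against 49.6% of all probes. The fitted log2 fold changes of the 13 probes ranged from -3.36, that of Apln, which is no measured size, to 0.67. Of the 12 others the lowest was -2.52, that of Vegfa. Of all 13, 9 lay below 0 and 4 above it, with a median of -0.42, where the median of all probes was 0.01.

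**Figure D1:**
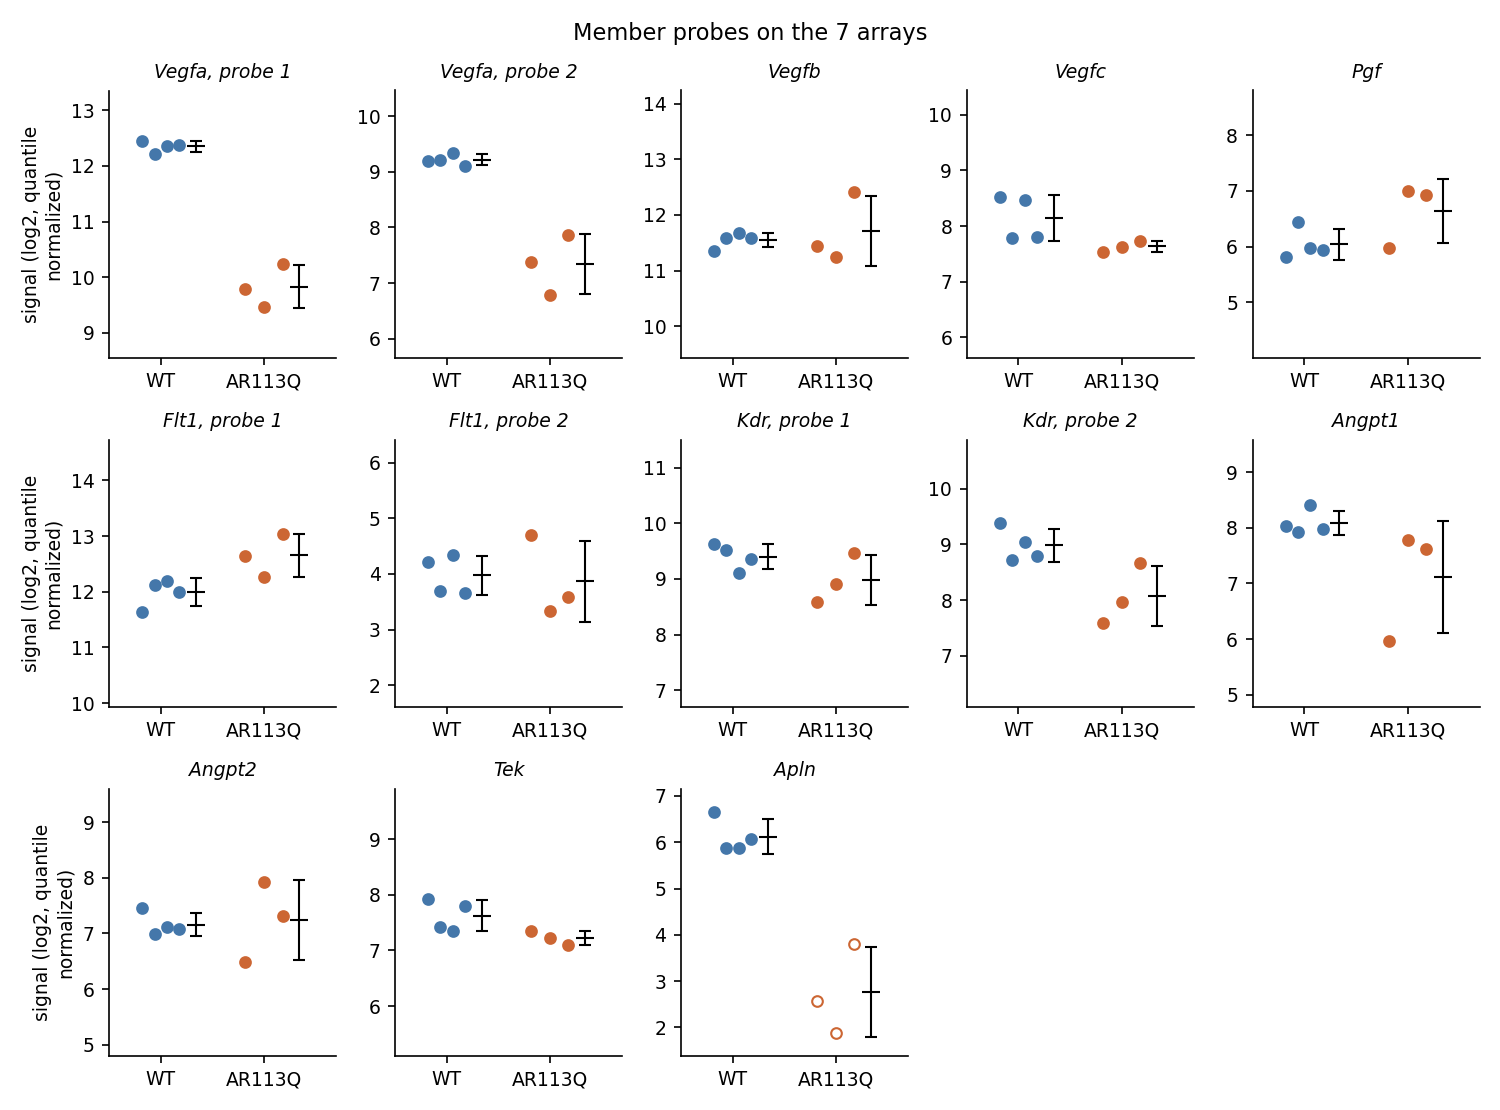
Signal of each of the 13 member probes (log2, quantile normalized, y axis) in WT (blue, n = 4) and AR113Q (orange, n = 3) muscle, 1 point per array, with the mean and SD beside the points in black. Open points belong to a genotype in which the probe had no array well over background, which is the case for Apln in AR113Q alone; both Vegfa probes and Apln show wide gaps between the genotypes.

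Vegfa fell on both of its probes, and both were bright enough to be measured on every array. The probes lie on chromosome 17 of the mm9 build, on the minus strand, the first at chr17:46154387-46154446 and the second at chr17:46162376-46162435, 7989 bases further upstream. The exon or untranslated region they lie in is not given in the sources used here. The first 30 of the 60 bases of the first probe, which gave the larger fall, are printed.
Vegfa, first probe: cagatcggtgacagtcactagcttgtcctg
The first probe read 12.45, 12.21, 12.36 and 12.38 in WT replicates 1 to 4, and 9.79, 9.46 and 10.23 in AR113Q replicates 1 to 3. Every AR113Q array was below every WT array by a wide margin, and the WT arrays differed little among themselves. The log2 fold change was -2.52 (SE 0.20, 95% interval -2.98 to -2.06, adjusted p = 0.000128), a signal 5.75-fold lower. The second probe read 9.19, 9.22, 9.34 and 9.10 in WT and 7.38, 6.78 and 7.86 in AR113Q. Its genotypes did not overlap either, and AR113Q replicate 2 was again the lowest and replicate 3 the highest of the mutants. Its log2 fold change was -1.87 (SE 0.25, interval -2.44 to -1.31, adjusted p = 0.000819), or 3.67-fold lower, so that the 2 probes differed by 0.65 in the size of the fall. Within the slide that held both genotypes the differences were -2.42 and -1.85, close to those over all arrays. As deposited, before normalization, the first probe had intensities of 3580 to 4650 on the WT arrays and 966 to 1450 on the AR113Q arrays.

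No other VEGF ligand among the 10 genes passed the test. Vegfb, the ligand of FLT1 linked to fatty acid handling (probe at chr19:7057245-7057304, minus strand), read 11.36, 11.59, 11.67 and 11.58 in WT and 11.45, 11.25 and 12.42 in AR113Q. The genotypes overlapped, with AR113Q replicate 3 above all other arrays, and the log2 fold change was 0.15 (interval -0.48 to 0.79, adjusted p = 0.678), or -0.15 within the shared slide. Its interval excludes a fall of the size seen for Vegfa.

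Vegfc, the lymphatic factor (probe at chr8:55271533-55271592, plus strand), read 8.53, 7.79, 8.46 and 7.80 in WT and 7.54, 7.62 and 7.74 in AR113Q. All 3 AR113Q values were below the WT values, though by little below WT replicates 2 and 4, and the log2 fold change of -0.51 (interval -1.04 to 0.02, adjusted p = 0.107) did not pass the test. It was -0.25 within the shared slide, and it passed, below the 2-fold limit, with normexp correction (-0.43, adjusted p = 0.0492) and with no background subtraction (-0.46, adjusted p = 0.0467). Pgf, the placental growth factor, whose probe has no position in the array annotation, read 5.81, 6.44, 5.98 and 5.94 in WT and 5.97, 7.0 and 6.93 in AR113Q. AR113Q replicates 2 and 3 were above every WT array while replicate 1 was among them. The log2 fold change was 0.59 (interval -0.06 to 1.24, adjusted p = 0.126), and without AR113Q replicate 1 it was 0.92 (adjusted p = 0.0146), whereas within the shared slide it was -0.47.

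Of the VEGF receptors, 1 probe of Flt1 was higher and 1 of Kdr lower in AR113Q muscle, each by less than the 2-fold that a call required. The 2 probes of Flt1 lie on chromosome 5 of mm9, minus strand, at chr5:148373791-148373850 and 92185 bases upstream at chr5:148465976-148466035, and those of Kdr, on the same strand, at chr5:76330395-76330454 and 1086 bases downstream at chr5:76329309-76329368. Their first 30 bases are shown because the probes of each receptor gave different results.
Flt1, first probe: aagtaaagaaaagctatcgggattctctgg
Flt1, second probe: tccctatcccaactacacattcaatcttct
Kdr, first probe: tgtttaaatggaagtggtcctgtcccggct
Kdr, second probe: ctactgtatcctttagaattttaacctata
The first Flt1 probe read 11.63, 12.12, 12.20 and 12.00 in WT and 12.65, 12.27 and 13.04 in AR113Q. The genotypes did not overlap, but AR113Q replicate 2 stood only just above the highest WT array. The log2 fold change was 0.67 (SE 0.23, interval 0.15 to 1.19, adjusted p = 0.0422), or 1.59-fold higher, and 0.54 within the shared slide. This p was not stable: leaving out any array other than AR113Q replicate 2 raised it above the threshold, to between 0.0521 without WT replicate 3 and 0.111 without AR113Q replicate 3. The second Flt1 probe, made for a separate cDNA, was dim and above background on 6 arrays; it read 4.22, 3.69, 4.34 and 3.66 in WT and 4.70, 3.33 and 3.58 in AR113Q, with overlapping genotypes and a log2 fold change of -0.11 (adjusted p = 0.819), or 1.01 within the shared slide.

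The first Kdr probe read 9.63, 9.52, 9.11 and 9.35 in WT and 8.58, 8.90 and 9.46 in AR113Q. AR113Q replicate 3 lay among the WT arrays and the other mutants below them, with a log2 fold change of -0.42 (interval -0.97 to 0.12, adjusted p = 0.182), which became -0.66 (adjusted p = 0.0341) without AR113Q replicate 3 and -0.22 without AR113Q replicate 1, and was -0.94 within the shared slide. The second probe is printed 10 times on each array, and its spots on 1 array had an SD of 0.06 to 0.17 on the log2 scale, small beside the spread between mice. It read 9.38, 8.72, 9.05 and 8.79 in WT and 7.59, 7.97 and 8.66 in AR113Q. No value overlapped, but AR113Q replicate 3 was only just below the lowest WT array. The log2 fold change was -0.91 (SE 0.28, interval -1.55 to -0.27, adjusted p = 0.0296), 1.88-fold lower, and -1.13 within the shared slide. The adjusted p was 0.0065 without AR113Q replicate 3, which makes the difference -1.21, and rose above the threshold without WT replicate 1 (0.0739), WT replicate 3 (0.0621), AR113Q replicate 1 (0.0966) or AR113Q replicate 2 (0.0831).

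The angiopoietins and their receptor passed no threshold. Angpt1, the activating ligand (probe at chr15:42256335-42256394, minus strand), read 8.03, 7.93, 8.41 and 7.98 in WT and 5.96, 7.78 and 7.61 in AR113Q. All mutants were below the WT arrays, but replicate 1 stood far below the others. The log2 fold change of -0.97 (SE 0.41, interval -1.92 to -0.03, adjusted p = 0.0887) fell in size to -0.39 without AR113Q replicate 1, and was -1.30 (adjusted p = 0.0492) without AR113Q replicate 2 and -1.97 within the shared slide. Angpt2, the context-dependent antagonist (probe at chr8:18691458-18691517, minus strand), read 7.46, 6.99, 7.11 and 7.08 in WT and 6.49, 7.92 and 7.31 in AR113Q. AR113Q held both the lowest and the highest value, and the log2 fold change was 0.08 (interval -0.64 to 0.80, adjusted p = 0.851), or -0.50 within the shared slide. Tek (probe at chr4:94540624-94540683, plus strand) read 7.93, 7.43, 7.35 and 7.79 in WT and 7.35, 7.23 and 7.09 in AR113Q; the highest mutant touched the lowest WT array at 2 decimals, and the log2 fold change was -0.41 (interval -0.84 to 0.03, adjusted p = 0.118), or -0.08 within the shared slide.

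Apln fell out of the measurable range in AR113Q muscle. Its probe, at chrX:45378593-45378652 of mm9 on the minus strand, read 6.66, 5.88, 5.88 and 6.07 in WT, well above background on all 4 arrays. It read 2.58, 1.89 and 3.81 in AR113Q and was not well above background on any of the 3. The signal in AR113Q is therefore only bounded. With the processing used here Apln was at least 5.23-fold lower. The bound was smaller with normexp correction (1.66-fold) and with no background subtraction (1.49-fold). It takes, on each AR113Q array, the higher of the probe's own value and the lowest signal of any probe well above background. That lowest signal was 3.09 to 4.30 with the processing used here. The fitted log2 fold change of -3.36 (adjusted p = 0.000683; -3.30 within the shared slide) sets WT against values not above background, and its size depends on how the background was subtracted. It was -0.73 with normexp correction and -0.72 with no background subtraction. With the authors' normalized values, whose background treatment is not stated in the methods, it was -0.38. In each of these the adjusted p stayed below the threshold (0.00767, 0.00932 and 0.0227) and the 2-fold limit was not reached.

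**Figure D2:**
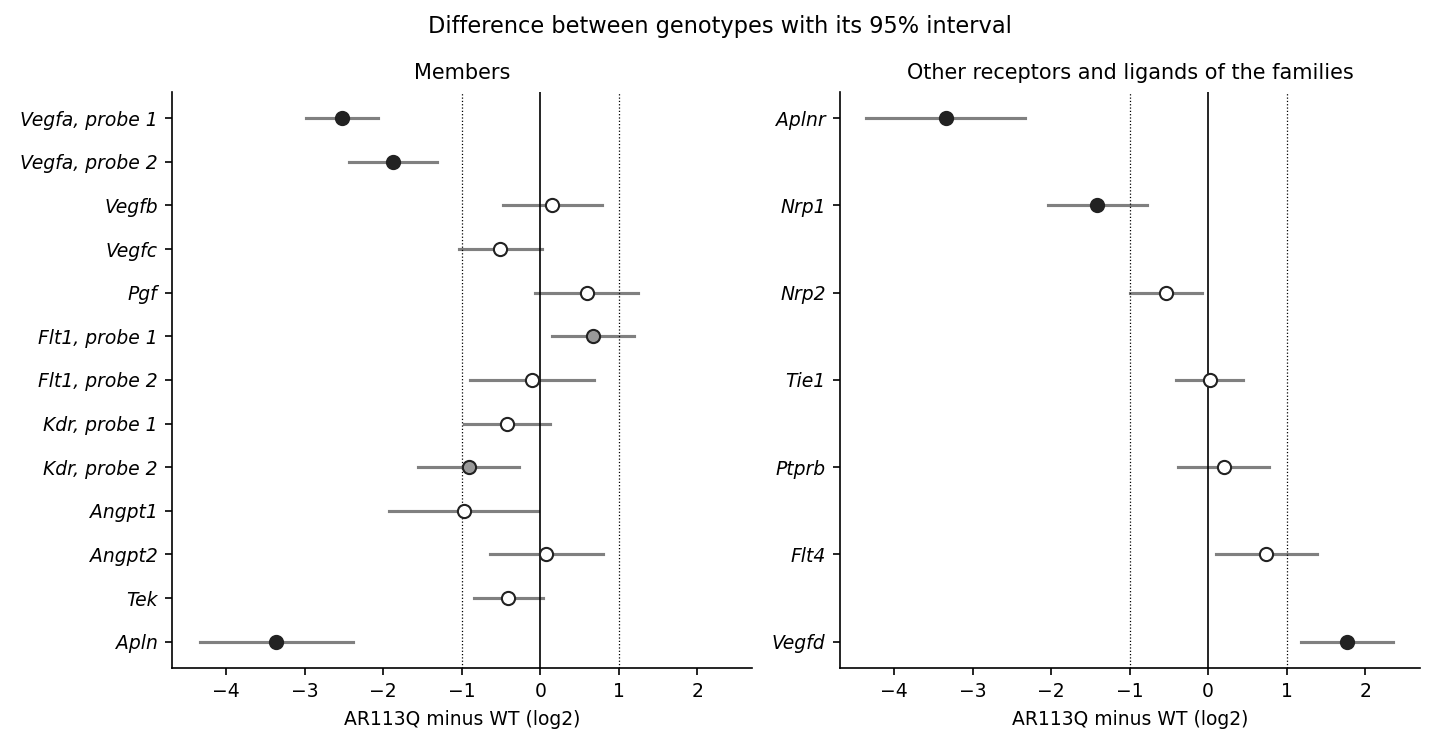
Log2 fold change (AR113Q minus WT, x axis) of the 13 member probes on the left and of 7 other genes of the same families on the right, with the 95% interval of the limma fit as a grey line. Black points were called, grey points had an adjusted p of at most 0.05 with a smaller difference, open points passed neither, and dotted lines mark a 2-fold change; Vegfa and Apln stand apart on the left, Aplnr, Nrp1 and Vegfd on the right.

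Of 9 further genes of these families, 7 were measured, and 1 rose and 2 fell, where 11.2% of all genes, each by its brightest kept probe, were called higher and 13.1% lower. Aplnr, the apelin receptor, fell together with its ligand: it read 7.0, 5.59, 6.23 and 6.95 in WT and 3.42, 3.64 and 2.24 in AR113Q. It was well above background on all WT and on no AR113Q array, so it too was tested through the WT arrays only and was at least 6.23-fold lower. The fitted log2 fold change, against values not above background, was -3.34 (adjusted p = 0.000809), or -2.17 within the shared slide. As for Apln, both values depend on the background: with normexp correction the fitted value was -0.72 and the bound 1.6-fold, and with no background subtraction the bound was 1.54-fold. Nrp1, the co-receptor that binds VEGF-A beside KDR, read 5.65, 5.64, 5.46 and 5.01 in WT and 3.56, 4.60 and 3.93 in AR113Q. Its arrays did not overlap, and its log2 fold change was -1.41 (adjusted p = 0.00428), or -2.08 within the shared slide, but it was -0.29 with normexp correction and -0.26 (adjusted p = 0.0857) with no background subtraction. Vegfd, the other ligand with lymphatic activity, moved the opposite way, from 8.36, 8.89, 8.62 and 8.81 in WT to 10.90, 10.51 and 9.89 in AR113Q. All mutants were above all WT arrays, with a log2 fold change of 1.77 (SE 0.26, adjusted p = 0.00125), or 3.4-fold, and 2.02 within the shared slide. The log2 fold changes of the other measured genes on their brightest probes, none of which passed the test, were 0.74 for Flt4, the receptor of VEGF-C and VEGF-D, 0.20 for Ptprb and 0.02 for Tie1. Nrp2 had -0.54 (adjusted p = 0.0566) on its brighter and -0.56 (adjusted p = 0.0174) on its dimmer probe, and the brighter one passed without WT replicate 4 (0.0334) or AR113Q replicate 3 (0.0376), as Flt4 did without WT replicate 3 (0.0201). Angpt4, a further angiopoietin, was well above background on 2 arrays, both WT, which was too few to be tested, and Apela, the second ligand of the apelin receptor, on 0.

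Of 13 genes of the hypoxia and PGC-1 pathways, which regulate Vegfa, 12 were measured, and 2 rose and 0 fell. Egln3, the oxygen-sensing hydroxylase that is itself a HIF target, rose from 7.29 to 8.32 in WT to 10.07 to 10.85 in AR113Q, a log2 fold change of 2.69 (SE 0.31, adjusted p = 0.000482), or 2.49 within the shared slide. Hif3a, an inhibitory HIF subunit, had a log2 fold change of 1.26 (adjusted p = 0.046), which no longer passed without any 1 array other than WT replicate 2 (0.0505 to 0.145) and was -0.01 within the shared slide. Hif1a had a log2 fold change of 0.47 (adjusted p = 0.0577, and 0.0193 without AR113Q replicate 1) and Epas1, the gene of HIF-2alpha, of 0.39 (adjusted p = 0.293, with AR113Q replicate 1 missing because its spot was an outlier). Arnt, the partner of both, was higher by 0.92 (adjusted p = 0.00391) on its brighter probe, under the 2-fold limit, and by 1.14 (adjusted p = 0.0123) on its dimmer one, which was called, and 3 regulators rose when the probes of a gene were averaged. Vhl, whose product targets HIF for degradation, was higher by 0.71 (adjusted p = 0.00645). Ppargc1a, the gene of PGC-1alpha, had a log2 fold change of -0.37 (adjusted p = 0.425), Esrra, the gene of ERRalpha, of -0.54 (adjusted p = 0.16, and 0.0387 without AR113Q replicate 3) and Esrrg, of -0.64 (adjusted p = 0.45).

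Hypoxia targets other than Vegfa moved in both directions: of 20 genes, 4 rose and 7 fell, with a median log2 fold change of -0.19. Kdm3a, a histone demethylase, rose by 1.96 (adjusted p = 0.000177) and Ddit4, an inhibitor of mTORC1, by 1.60 (adjusted p = 0.0331), though Ddit4 did not pass without any 1 array other than WT replicate 2 (0.0578 to 0.107). Tfrc, the transferrin receptor, had a log2 fold change of -3.65 (adjusted p = 0.00031) and Ankrd37 of -2.09 (adjusted p = 0.000203).

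Among 18 other angiogenic factors, 15 were measured, 5 fell and 0 rose. Acvrl1 (ALK1), a BMP receptor of endothelial cells, had a log2 fold change of -2.28 (adjusted p = 6.85e-05) and Pdgfb, the endothelial ligand that recruits pericytes, of -1.76 (adjusted p = 0.000401). Angptl4, a lipase inhibitor and hypoxia-responsive factor, had one of 1.51 (adjusted p = 0.0612), in which WT replicate 3 lay far below the other WT arrays, and 0.91 (adjusted p = 0.00867) without that array. It passed, as the 1 factor called higher, with the filter on all 7 arrays, the 75th percentile, normexp, no background subtraction, an intensity trend in eBayes or the replicate block (1.36 to 1.64, adjusted p = 0.0368 to 0.0489), and with no filter on dim probes the 1 called was Hgf, well above background on 1 array. Edn1, the vasoconstrictor endothelin, had one of 0.75 (adjusted p = 0.0356), below 2-fold, which did not pass without WT replicate 1 (0.0634), AR113Q replicate 2 (0.0979) or AR113Q replicate 3 (0.0809). Of 11 angiogenesis inhibitors 9 were measured, and 1 rose and 3 fell: Thbs1 (thrombospondin) had a log2 fold change of 1.11 (adjusted p = 0.0457) that was not called without WT replicate 1 or 2 or without any 1 AR113Q array (0.0602 to 0.123), Tnmd (tenomodulin) of -2.79 (adjusted p = 0.0202) and Serpinf1 (PEDF) of -1.37 (adjusted p = 0.0203). Without AR113Q replicate 1 these became -1.82 (adjusted p = 0.0398) and -0.82 (adjusted p = 0.00541), the latter below 2-fold. The number of inhibitors that fell was 1 with no filter on dim probes, where neither passed (0.0614 and 0.0565), and 1 with the authors' values, where Tnmd had -0.79. Of 12 Notch and tip cell genes 9 were measured, 0 rose and 1 fell, the semaphorin receptor gene Plxnd1 at -1.61 (adjusted p = 0.000381), while Jag2 had a smaller log2 fold change of -0.58 (adjusted p = 0.0266), which no longer passed when any 1 array other than AR113Q replicate 1 was left out (0.0511 to 0.0837). Nrarp and Notch4 had 0.47 each without passing the test, though Notch4 passed without AR113Q replicate 1 (0.0271).

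**Figure D3:**
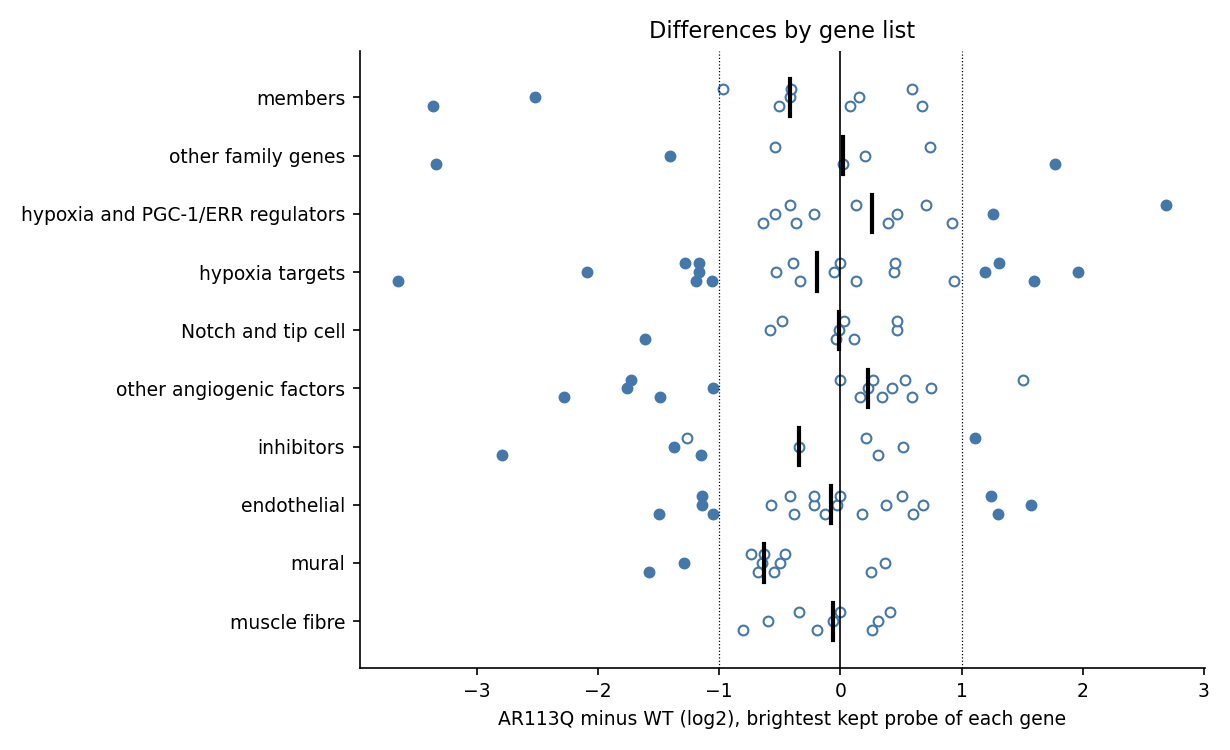
Log2 fold change (AR113Q minus WT, x axis) of the brightest kept probe of each gene in 10 lists, 1 point per gene, filled where called. The black bar is the list's median and dotted lines mark a 2-fold change; the medians of the endothelial and muscle fibre lists lie near 0, with called endothelial genes on either side of it, and 9 of the 11 mural genes lie below it.

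Whole muscle was measured, so fewer cells of a type and less RNA per cell cannot be told apart, and markers of the cells that make or receive these signals were set beside the members. All 9 muscle fibre markers were measured, 0 were called, and their median log2 fold change was -0.06. Their summed signal, on the linear scale of the normalized arrays, was 628000 to 771000 in WT and 441000 to 831000 in AR113Q. The markers of slow and oxidative fibres differed widely within each genotype. Myh7, the slow myosin, and Myh2, the myosin of fast oxidative fibres, are named after their values were seen. Myh7 read 4.95, 12.56, 11.89 and 6.66 in WT and 6.66, 6.22 and 13.59 in AR113Q, and Myh2 read 11.68, 14.75, 14.82 and 11.27 in WT and 12.10, 12.14 and 15.92 in AR113Q. Both were high in WT replicates 2 and 3 and highest in AR113Q replicate 3. Among the AR113Q arrays, replicate 3 was also the highest for both Vegfa probes, Vegfb, Vegfc, the first Flt1 probe, both Kdr probes and Apln. It was not the highest for Pgf, the second Flt1 probe, Angpt1 or Angpt2, and it was the lowest for Tek. Among the WT arrays, replicates 2 and 3 were the highest for the second Vegfa probe, Vegfb, Pgf and the first Flt1 probe. They were not for the other member probes, and the first Vegfa probe was lowest in WT replicate 2. The largest increases among the fibre markers were those of Des (desmin), at 0.41, and Myh1, at 0.31, and the largest decreases those of Ckm (creatine kinase), at -0.80 (adjusted p = 0.0101, below 2-fold), and Acta1 (skeletal actin), at -0.60 (adjusted p = 0.072). Acta1 had -1.22 (adjusted p = 0.0121) with the 75th percentile and also passed without AR113Q replicate 3 (0.0172), as Des did (0.0386). Endothelial cells hold Kdr, Flt1, Tek and most Aplnr, and 20 of 20 endothelial markers were measured, with 3 called higher, 4 called lower and a median of -0.08. Their summed signal was 41800 to 48600 in WT and 42400 to 49400 in AR113Q, so the 2 ranges overlapped almost whole. Bright genes add most to this sum, and of the 20 log2 fold changes 12 lay below 0 and 8 above it. Pecam1 (CD31) was higher by 0.60 (adjusted p = 0.0189, and 0.0507 and 0.0514 without WT replicates 1 and 2), Cdh5 (VE-cadherin) had a log2 fold change of -0.22 (adjusted p = 0.492) and Vwf (von Willebrand factor) of -1.05 (adjusted p = 0.00959). The largest increases among the endothelial markers were those of Sox17, at 1.57 (adjusted p = 0.00203) on the probe with the higher mean over all arrays, which was the dimmer one in WT (7.60 against 7.90), and 0.39 (adjusted p = 0.225) on the other, and Cldn5, at 1.30 (adjusted p = 0.021). The largest decreases were those of Icam2, at -1.50 (adjusted p = 0.00062), and Sox18, at -1.14 (adjusted p = 0.0315). Cldn5 did not pass without AR113Q replicate 2 (0.054) or 3 (0.0642), nor Sox18 without any 1 array other than WT replicate 1 and AR113Q replicate 1 (0.0504 to 0.0719), and the 7 endothelial probes called became 4 without WT replicate 3 or AR113Q replicate 2.

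Of 11 markers of mural cells, the pericytes and smooth muscle cells that make Angpt1, 2 fell and 0 rose, a share not far from the 13.1% of all genes called lower. Their summed signal, to which bright genes add most, was 20900 to 22300 in WT and 13300 to 18100 in AR113Q, without overlap, and their median log2 fold change was -0.63. Those that fell were the channel gene Kcnj8 at -1.58 (adjusted p = 0.00227) and Cspg4 (NG2) at -1.29 (adjusted p = 0.00519), while Pdgfrb at 0.37 (adjusted p = 0.107) and Myh11 at 0.25 (adjusted p = 0.379) did not pass the test. Neither Kcnj8 nor Cspg4 was called with normexp correction, with no background subtraction or with the authors' values. Of 8 fibroblast markers 5 were called lower and 0 higher, with sums of 100000 to 125000 in WT and 75800 to 108000 in AR113Q. Col1a1, a collagen chain, had -3.27 (adjusted p = 0.00218) and Pi16 -2.98 (adjusted p = 0.000964), while Dcn (decorin) had 0.41 (adjusted p = 0.0706, and 0.0353 without AR113Q replicate 1) and Pdgfra -0.27 (adjusted p = 0.424). Of 4 fat cell markers 3 were called lower, Adipoq (adiponectin) at -2.71 (adjusted p = 0.00114), Plin1 (perilipin) at -1.39 (adjusted p = 0.0389) and Cidec at -1.02 (adjusted p = 0.0388), with sums of 4660 to 9090 and 1340 to 2580, and Lep (leptin) had -1.04 (adjusted p = 0.166). With 1 array left out, Plin1 did not pass unless that array was WT replicate 3 or AR113Q replicate 3 (otherwise 0.0522 to 0.0902), nor Cidec unless it was WT replicate 1 or 3 or AR113Q replicate 3 (otherwise 0.0852 to 0.12). Of 8 macrophage markers 3 were called lower and 1 higher, among them Adgre1 at -1.94 (adjusted p = 0.00152), Lyz2 (lysozyme) at -1.30 (adjusted p = 0.0173, and 0.0539 without AR113Q replicate 3) and Cd163 at 1.18 (adjusted p = 0.00979), while Itgam had 0.23 (adjusted p = 0.508), with sums of 7250 to 12200 and 4900 to 6590. Red cell markers, 4 genes with 0 called and log2 fold changes of -1.45 (Slc4a1, adjusted p = 0.0857, and 0.0321 without WT replicate 2), -1.13 (Alas2), -0.79 (Hbb-b1) and -0.68 (Hba-a1), had sums of 44400 to 214000 in WT, where replicates 3 and 4 were the highest, and 45200 to 57700 in AR113Q. Of the 3 lymphatic markers on the array 2 were measured and 0 called, Lyve1 at -0.31 and Pdpn at -0.60 (adjusted p = 0.161, and 0.0161 without AR113Q replicate 2), with sums of 1100 to 1540 and 542 to 1360, and Prox1, their defining factor, was not above background on any array. The part of these cell and fibre markers in the results for the members was not tested.

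The array-to-array pattern of Vegfa was shared by many genes. By Pearson's r with its brighter probe over the 7 arrays, the nearest of 13707 genes were Homer1, Cyren, Hacd1, Ctsc and Cited4, at 0.997 for the first 4 and 0.996 for Cited4, and their log2 fold changes were -1.95, -3.59, -2.63, -1.03 and -6.09. Since 731 genes had an r of at least 0.95 and the 7 points fall into the 2 genotypes, this r mainly describes the gap between them. Among the members the second Vegfa probe had an r of 0.99, Apln of 0.98, the second Kdr probe of 0.85 and the first Flt1 probe of -0.71.

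Promoter sequences from RefSeq (GRCm38.p6, 250 bases before to 50 after an annotated start) were found for 8 of the 10 members, in 10 entries. They are shown for Vegfa at its first start and Apln, the 2 members that were called, and for the receptors Flt1 and Kdr. Capitals mark the hypoxia response core, ACGTG or GCGTG on either strand, of which the first also lies within the E-box CACGTG.
Vegfa, chr17:46032328-46032627, minus strand: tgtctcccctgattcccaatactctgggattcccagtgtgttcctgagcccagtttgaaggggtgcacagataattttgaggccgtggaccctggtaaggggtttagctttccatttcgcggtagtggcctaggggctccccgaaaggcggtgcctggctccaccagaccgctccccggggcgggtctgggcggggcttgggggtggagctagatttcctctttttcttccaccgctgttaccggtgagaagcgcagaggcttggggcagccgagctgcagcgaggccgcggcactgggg
Apln, chrX:48034804-48035103, minus strand: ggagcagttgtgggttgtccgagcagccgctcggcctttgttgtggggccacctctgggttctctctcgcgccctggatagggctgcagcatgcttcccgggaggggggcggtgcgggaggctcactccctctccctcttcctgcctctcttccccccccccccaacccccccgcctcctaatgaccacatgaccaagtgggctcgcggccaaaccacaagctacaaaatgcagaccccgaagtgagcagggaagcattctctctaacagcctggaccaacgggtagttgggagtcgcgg
Flt1, chr5:147725962-147726261, minus strand: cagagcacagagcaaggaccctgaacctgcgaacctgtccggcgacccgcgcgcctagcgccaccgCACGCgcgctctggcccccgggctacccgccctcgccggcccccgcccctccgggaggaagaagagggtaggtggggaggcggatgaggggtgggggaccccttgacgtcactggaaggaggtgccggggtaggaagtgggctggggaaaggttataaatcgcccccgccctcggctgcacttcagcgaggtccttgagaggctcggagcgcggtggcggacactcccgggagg
Kdr, chr5:75978406-75978705, minus strand: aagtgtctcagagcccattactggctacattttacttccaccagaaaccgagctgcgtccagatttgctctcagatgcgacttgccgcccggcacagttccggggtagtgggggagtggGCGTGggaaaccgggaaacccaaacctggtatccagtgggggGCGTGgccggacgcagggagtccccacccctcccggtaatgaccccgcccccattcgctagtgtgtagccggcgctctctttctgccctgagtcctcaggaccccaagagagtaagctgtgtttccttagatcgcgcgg
The core was in 5 of the 10 entries, those of 5 members, and in 43.8% of the 32851 promoters of the table. It was absent from the windows of Apln and of the first Vegfa start, while the window of the second Vegfa start held 2 matches, at 218 and 211 bases before that start. Vegfa is among the 5 members through that window alone. The second start lies downstream of the first, and whether its window holds coding sequence is not given in the sources used here. Flt1 held 1 match at 184 bases before the start, and Kdr held 2, at 131 and 89 bases before it. The nuclear receptor motif AAGGTCA, found in 4.72% of all promoters, was in 0 of the 10 entries, the steroid receptor motif AGAACA (19% of all) in 1, that of Tek, and the E-box CACGTG (7.15% of all) in 0. These matches describe letters in short windows, and sites further from the starts were not searched.

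**Figure D4:**
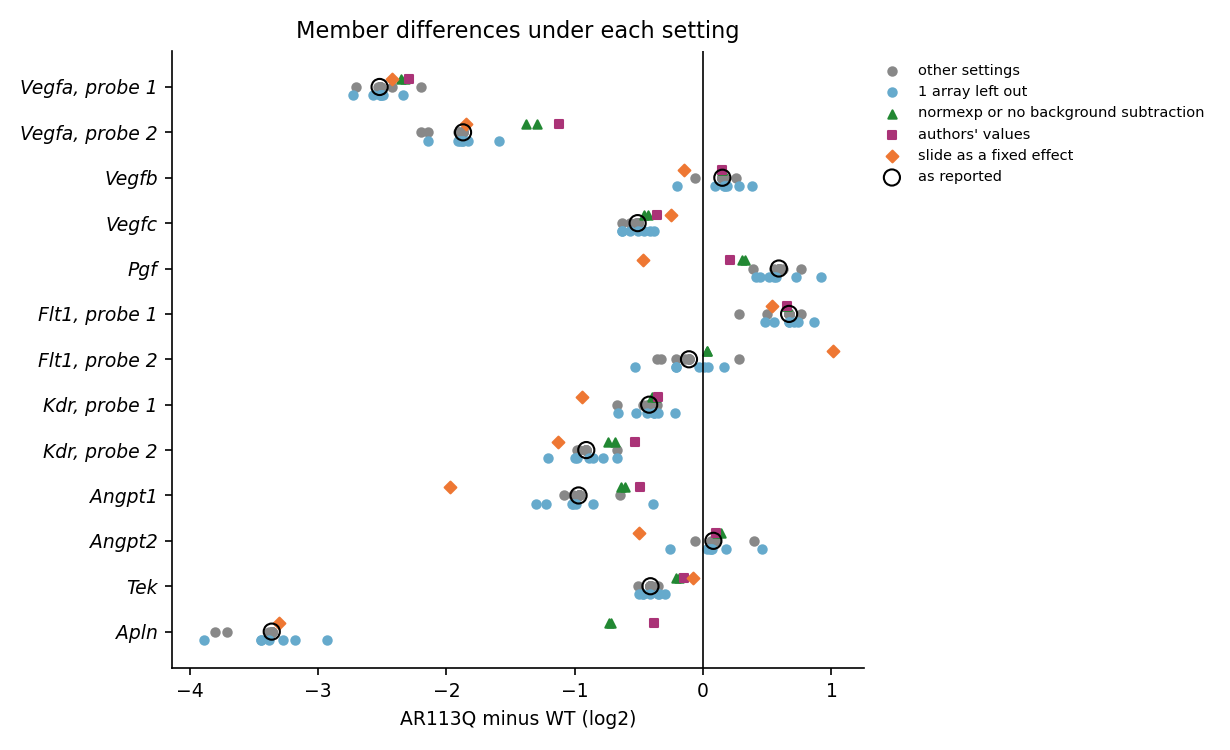
Log2 fold change (AR113Q minus WT, x axis) of each member probe as reported (open circle) and under each alternative processing (coloured points, named in the key). Both Vegfa probes stayed below -1 throughout, and Vegfb, Angpt2, Pgf and the second Flt1 probe crossed 0. Apln moved from -3.36 to -0.73 with normexp correction, -0.72 with no background subtraction and -0.38 with the authors' values.

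The first Vegfa probe had a log2 fold change of -2.73 to -2.20 and the second of -2.20 to -1.12 over all alternatives tried, and both passed the test in each of them except slide as a fixed effect (adjusted p = 0.0509 and 0.0551). That fit rests on the 1 slide with both genotypes for the difference, and 0 probes of any gene passed it, although 7922 had an unadjusted p of at most 0.05. With slide as a random block, 5210 probes were called, beside 5207 without it. The correlation within slides in that fit was -0.11. Only the slide with both genotypes and the slide of WT replicates 3 and 4 held more than 1 array, so that fit says little about slide.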

How the data were processed

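RNA of 7 quadriceps muscles was hybridized to single-dye Agilent Mouse GE 4x44K V2 arrays. The authors extracted spots with Feature Extraction 10.7.3.1 and deposited, for each array, an intensity per spot that was background-subtracted and detrended but not normalized between arrays, with the mean spot intensity and the local background. Their own log2 values of 18592 probes, deposited beside these and quantile normalized per the methods, served as an alternative. Background subtraction widens log2 differences between dim spots.

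Outlier and control spots were left out, log2 intensities of 43020 spots were quantile normalized, and spots of a probe were averaged. Probes well above background on at least 3 arrays (20990 of 39429) were tested with limma 3.58.1 in R 4.3.3 (lmFit, eBayes), with Benjamini-Hochberg adjustment over all of them, an adjusted p of 0.05 and a log2 fold change of 1 as limits. The procedure was tested on simulated data. Names came from RefSeq accessions (GRCm38.p6, 28330 probes), otherwise from the array; probe positions are mm9. A gene with several probes is represented in lists by its brightest kept one.

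The members and gene lists were chosen with earlier results of these data known. The text names all members and, of the other lists, up to 2 of the largest changes in each direction and a few genes set by name. Replicates are different mice. Alternatives were the 75th percentile, normexp (offset 50), mean intensity, the authors' values, other filters and probe rules, outlier spots kept, eBayes options, array weights, slide, replicate number and each array left out. RNA-seq and other parts of the study were not used here, and some measured items are not reported here.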

Additional observations from a re-analysis of the deposited data

How the results depend on the processing

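The number of member probes called (3) stayed at 2 to 4 under the alternatives tried, except 0 with slide as a fixed effect and 5 with no fold change threshold; it was 3 to 4 with each array left out in turn. Endothelial probes called (7) were 4 with normexp or with mean intensity, 3 with the authors' values, 0 with slide as a fixed effect, and 4 to 7 with each array left out. The bound for Apln (5.23-fold) was 1.66 with normexp and 1.49 with mean intensity, and 4.19 to 6.36 with an array left out. Some differences that were not called changed sign: with slide as a fixed effect, Angpt2 (-0.50), Vegfb (-0.15), Pgf (-0.47), the second Flt1 probe (1.01), Notch4 (-0.18), Ptprb (-0.17), Itgam (-0.41), Myh1 (-0.98), Slc4a1 (0.33), Alas2 (0.24), Hba-a1 (0.35) and Hbb-b1 (0.68), and the called Hif3a (-0.01); with normexp, the second Flt1 probe (0.03) and Tie1 (-0.03); with mean intensity, the same Flt1 probe (0.03) and Tie1 (-0.04); with the authors' values, Tie1 (-0.02); with array weights, which were lowest for AR113Q replicates 1 (0.43) and 3 (0.41), Vegfb (-0.06), Myh1 (-0.03) and Tie1 (-0.01); with the 75th percentile, Angpt2 (-0.06); with the mean over a gene's probes, Flt1 (0.28 against -0.11), Itgam (-0.04) and Epas1 (-0.37), where AR113Q replicate 1 has no value on the brightest of the 3 Epas1 probes, so that its mean covers the dimmer 2 only and is low for that reason. With each array left out in turn, differences ranged from -0.26 to 0.46 for Angpt2 (lowest without AR113Q replicate 2), -0.20 to 0.38 for Vegfb (lowest without AR113Q replicate 3), -0.53 to 0.16 for the second Flt1 probe (highest without AR113Q replicate 2), -0.04 to 0.83 for Epas1, -0.10 to 0.37 for Ptprb, -0.48 to 0.06 for Cdh5, -0.09 to 0.13 for Tie1, -0.05 to 0.48 for Itgam, -0.54 to 0.05 for Lyve1, -0.38 to 0.67 for Myh1 and -0.71 to 0.02 for Ppargc1a. For the others the cause was not tested. Of all probes, 5207 were called, 2088 with normexp, 2264 with mean intensity and 1592 with the authors' values; 75th percentile scaling called 2330 higher and 2983 lower, against 2554 and 2653. Same-numbered mice had correlations of 0.04, -0.02 and 0.16, and differently numbered ones of -0.17 to 0.12. These 3 pairs are too few to tell whether the replicate numbers pair the mice. With the replicate block, 3 member probes and 6 endothelial probes were called, and 5189 of all probes. The adjusted p of the first Flt1 probe and the second Kdr probe rose to 0.0828 and 0.0596 with that block (Plin1 to 0.119, Cidec to 0.113) and to 0.0836 and 0.0698 with no filter on dim probes, and that of Flt1 to 0.105 with array weights and 0.0622 with the authors' values.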
